A study of Mus musculus with 2 samples.

Results

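Chemokines are small secreted or membrane-tethered proteins that guide leukocytes and other cells through G protein-coupled receptors. They are grouped as CC, CXC, C and CX3C by the spacing of their first cysteines. Atypical receptors bind chemokines without the usual G protein signalling and act mainly as scavengers or presenters. In the ovary, chemokines are known for bringing macrophages, granulocytes and lymphocytes into the ovulating follicle and the corpus luteum, and the Cxcl12 and Cxcr4 pair for guiding primordial germ cells to the gonad.

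The genes described here are the rows of the ovary count table whose symbol is Ccl, Cxcl, Ccr or Cxcr followed by a digit, together with Cx3cl1, Xcl1, Xcr1, Ackr1, Ackr2, Ackr3, Ackr4 and Ccrl2. The rule uses symbols only and gave 61 genes of 24421 rows, namely 39 ligands and 22 receptors. The study compared the ovaries of H19KO mice, whose allele is labelled H19(Δ3), with those of wild-type (WT) mice. H19 is an imprinted long noncoding RNA. Both groups were C57BL/6J, 8 weeks old and untreated, and each group is 1 library of total RNA, so that genotype and library cannot be told apart. The labels give neither the number of animals or ovaries behind a library nor the zygosity of the allele. No replicate stands behind any difference described here, so no p-value is given, and "higher" and "lower" compare these libraries.

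The H19KO library held 23041225 counts and the WT library 23335131. H19 had 0 counts in the H19KO library and 672 in the WT library. A count of 0 allows up to 3 counts, which makes H19 at least 223-fold lower in the H19KO library, as its label states. Ovarian markers were abundant in both libraries. The 8 oocyte markers summed to 329 CPM (counts scaled to a common library total) in the H19KO library and 417 in the WT library, and 8 granulosa markers to 2060 and 2711 CPM in the same order of libraries. The exception was the theca marker Insl3, with 2 counts in the H19KO library and 1 in the WT library.

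Of the 61 genes, 26 had a mean of at least 1 CPM over the libraries, 16 ligands and 10 receptors, and are called measured. Ratios are H19KO over WT on the log2 scale after TMM scaling, with 0.5 added to scaled counts, and are followed by the exact 95% binomial interval, which covers counting error only. A gene counted as beyond 2-fold when its whole interval lay past that limit. Cxcl10 was beyond 2-fold on the higher side, 1 gene of 26, where 0.610% of all 13928 measured genes were. No member was beyond 2-fold on the lower side, where 0.388% of all genes were. By the looser criterion of an interval clear of equality, 7 of the 26 were higher and 5 lower, that is 26.9% and 19.2%. Over all measured genes the shares were 22.2% higher and 24.0% lower, near those of the family. The same shares are the background for the list counts below. They are not matched for abundance. At 100 CPM or more, where the median interval was 0.13 log2 units wide, there were 0 members and 2556 of all measured genes. Among genes of like abundance, 5 of the 26 members lay outside the central 95%, as described further on. The median log2 ratio was 0.06 for the 26 genes and -0.01 for all measured genes. The measured members shared no direction. Signalling receptors summed to 1474 counts in the H19KO library and 1077 in the WT library, and atypical receptors to 1030 and 1363 in the same order. The differences between these sums rest mostly on single genes, Cxcr4 with 1065 and 708 counts and Ccrl2 with 399 and 701 in that order. Of 6 measured signalling receptors 5 had an interval that spanned equality, as had 2 of 4 measured atypical receptors.

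**Figure D1:**
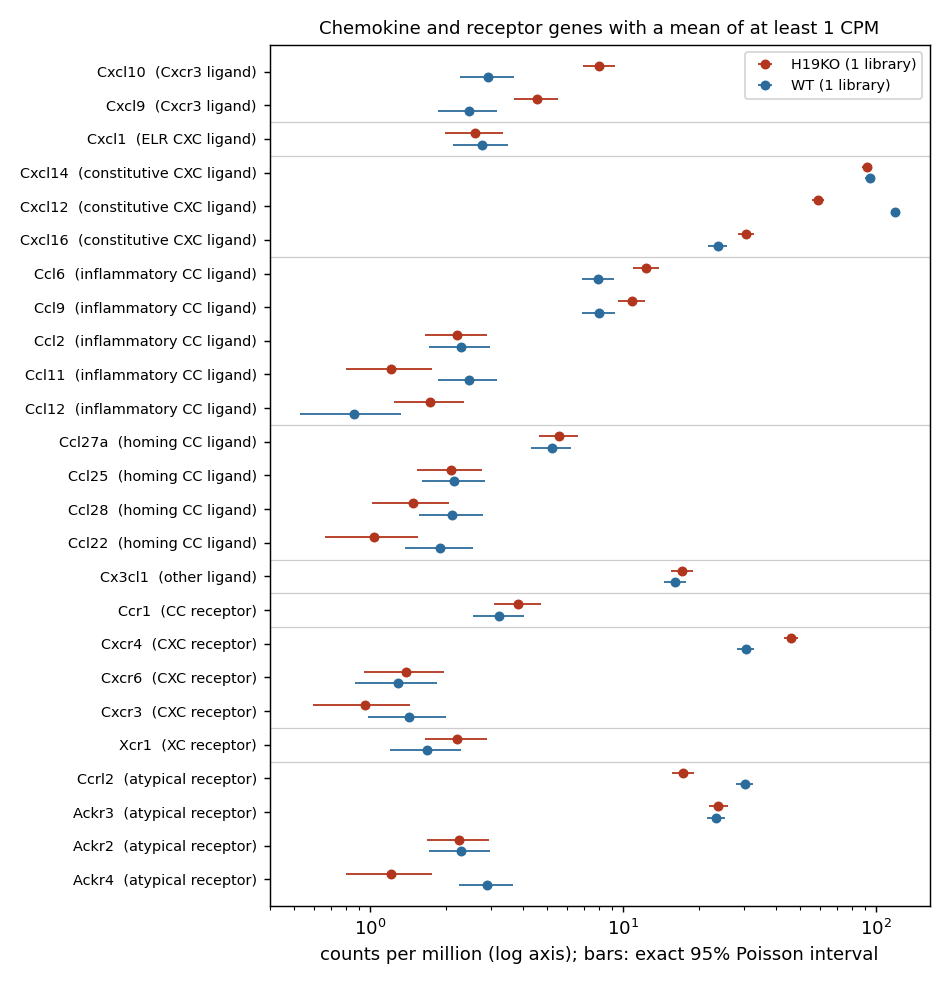
Levels in CPM in the H19KO library (red, upper point of each pair) and the WT library (blue, lower point) for 25 measured genes, on a log axis and grouped by role, with exact 95% Poisson intervals. Cxcl12, Ccrl2 and Ackr4 lie lower and Cxcl10 and Cxcr4 higher in the H19KO library, while Cxcl14, Ackr3 and Cx3cl1 have overlapping intervals.

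The ligands of Cxcr3 were higher in the H19KO library. Cxcl9 and Cxcl10 are inducible by interferon gamma and attract activated T cells and NK cells. Cxcl10 had 186 counts, or 8.04 CPM, in the H19KO library and 68 counts, or 2.92 CPM, in the WT library. It was 2.74-fold higher, a log2 ratio of 1.45 (1.05 to 1.88), and 77 of the 13928 measured genes had a higher ratio. Cxcl9 had 105 counts in the H19KO library and 57 in the WT library, a log2 ratio of 0.88 (0.41 to 1.38). The Cxcl9 interval was clear of equality but reached on both sides of 2-fold. The third ligand, Cxcl11, is annotated as a polymorphic pseudogene and had 0 counts in the H19KO library and 2 in the WT library. Within a library, Cxcl9 had 0.565 counts per Cxcl10 count (0.440 to 0.721) in the H19KO library and 0.838 (0.579 to 1.21) in the WT library, with overlapping intervals. The receptor did not go with them: Cxcr3 had 22 counts in the H19KO library and 33 in the WT library, and its interval spanned equality (-0.57, -1.43 to 0.24). There were 8.45 Cxcl10 counts per Cxcr3 count (5.42 to 13.8) in the H19KO library and 2.06 (1.34 to 3.22) in the WT library. Cxcl10 overlaps Art3 on the opposite strand, and the strand setting of the counting is not given. Art3 had 234 counts in the H19KO library and 224 in the WT library (0.07, -0.20 to 0.34).

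Some of the listed interferon genes were higher in the H19KO library beside these ligands. Of 14 measured genes of the interferon gamma list, which also holds type I receptor genes, 9 had an interval above equality and 0 below it, with a median of 0.32. Cd274, which encodes the ligand PD-L1, had 229 counts in the H19KO library and 59 in the WT library (1.96, 1.55 to 2.40), which lay beyond 2-fold. The class II transactivator Ciita had a ratio of 1.14 (0.88 to 1.41) and Irf1 one of 0.86 (0.75 to 0.97), while the kinase Jak1 had -0.03 (-0.06 to 0.01). The receptor genes Ifngr1 (-0.11, -0.23 to 0.01) and Ifngr2 (0.02, -0.07 to 0.11) and the kinase gene Jak2 (0.02, -0.06 to 0.10) spanned equality too. The cytokine genes themselves were at the floor of the data, with Ifng at 2 counts in the H19KO library and 1 in the WT library and Ifnb1 at 0 in both. T and NK cell markers were few: Cd3e had 16 counts in each library and Ncr1 22 in the H19KO library against 12 in the WT library. Of the 15 listed T and NK markers 5 were measured, 1 above equality and 1 below, and the list summed to 19.2 CPM in the H19KO library and 17.8 in the WT library. In whole tissue, fewer cells of a type and less RNA per cell cannot be told apart. The part of any of these values in the Cxcl9 and Cxcl10 difference was not tested.

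Cxcl9, Cxcl10 and Cxcl11 lie side by side on chromosome 5 (mm10, chr5:92321347-92365485). The promoters of Cxcl10 and Cxcl9 are shown because these neighbours were both higher, and that of Cxcl14 because it holds the same interferon-type letters without a difference between the libraries. The windows are RefSeq sequences of build GRCm38.p6, from 250 bases before to 50 after each start, and all lie on the minus strand. Capitals mark every match to 4 motifs searched on both strands: GAAA and GAAA around any 2 bases for interferon response, TTCNNNGAA for STAT, GGG and TTTCC around any 2 bases for NF-kB, and TATAAA.
Cxcl10 (chr5:92348840-92349139): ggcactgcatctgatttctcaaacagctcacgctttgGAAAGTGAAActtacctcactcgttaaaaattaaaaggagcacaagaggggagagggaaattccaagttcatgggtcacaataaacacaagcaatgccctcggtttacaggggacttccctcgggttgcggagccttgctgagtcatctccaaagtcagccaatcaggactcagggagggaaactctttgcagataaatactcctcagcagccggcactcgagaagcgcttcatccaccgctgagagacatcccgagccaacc
Cxcl9 (chr5:92328030-92328329): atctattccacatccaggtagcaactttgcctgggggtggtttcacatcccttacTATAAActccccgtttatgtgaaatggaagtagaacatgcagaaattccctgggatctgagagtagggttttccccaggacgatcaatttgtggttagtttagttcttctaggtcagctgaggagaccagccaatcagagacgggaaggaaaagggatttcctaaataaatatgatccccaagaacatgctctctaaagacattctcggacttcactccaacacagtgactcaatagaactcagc
Cxcl14 (chr13:56296502-56296801): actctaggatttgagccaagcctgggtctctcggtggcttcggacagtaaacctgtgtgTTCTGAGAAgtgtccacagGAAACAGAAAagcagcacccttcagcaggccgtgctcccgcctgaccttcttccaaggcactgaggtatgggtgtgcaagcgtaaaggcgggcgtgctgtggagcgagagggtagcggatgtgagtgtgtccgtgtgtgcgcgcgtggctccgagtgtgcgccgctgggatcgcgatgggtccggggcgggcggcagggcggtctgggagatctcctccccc

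The Cxcl10 window holds GAAAGTGAAA at positions -213 to -204 from the start. The Cxcl9 window holds no match to the interferon, STAT or NF-kB letters searched, and its capitals are TATAAA letters at -195 to -190. Cxcl14 holds GAAACAGAAA at -172 to -163 and TTCTGAGAA at -191 to -183, and its log2 ratio was -0.04. The interferon-type letters were in 3 of the 54 promoter windows that the 45 matched members have, 5.56%, and in 3.44% of all 32851 windows. The third such member was Ccl19, with 26 counts in the H19KO library and 17 in the WT library. STAT letters were in 4 of the 54 windows, 7.41%, against 8.30% of all. The NF-kB letters were in 6 of the 54, 11.1%, against 1.63% of all. Those 6 belong to Cxcl1, Cxcl2, Cxcl3, Ccl20, Ccl9 and Ccr3, of which only Cxcl1 and Ccl9 were measured. The Ccl9 interval was clear of equality and that of Cxcl1 spanned it. TATAAA was in 15 of the 54, 27.8%, against 13.6% of all. A match describes letters and not a bound site. Variant forms of these motifs were not searched, so a window without a match may still hold such a form.

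Cxcl12 was lower and its signalling receptor Cxcr4 higher in the H19KO library. Cxcl12 is a stromal chemokine that retains stem cells and leukocytes in tissues, Cxcr4 is its signalling receptor, and the atypical receptor Ackr3 scavenges it. Cxcl12 (chr6:117168535-117181367) had 1361 counts, or 58.9 CPM, in the H19KO library and 2766 counts, or 119 CPM, in the WT library. Its log2 ratio was -1.01 (-1.11 to -0.92), so that the interval straddled 2-fold, and 114 measured genes had a lower ratio. Cxcr4 (chr1:128588199-128592293) had 1065 counts, or 46.1 CPM, in the H19KO library and 708 counts, or 30.4 CPM, in the WT library (0.60, 0.46 to 0.74). Ackr3 had 549 counts in the H19KO library and 541 in the WT library, and its interval spanned equality (0.03, -0.14 to 0.20). The intervals of Cxcl12, Ackr3 and Cxcr4 did not overlap one another.

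The contrast between ligand and receptor does not depend on how the libraries were scaled. There were 1.28 Cxcl12 counts per Cxcr4 count (1.18 to 1.39) in the H19KO library and 3.91 (3.60 to 4.25) in the WT library. Per Ackr3 count there were 2.48 Cxcl12 counts (2.24 to 2.74) in the H19KO library and 5.11 (4.66 to 5.62) in the WT library. Cxcl12 made up 22.7% of all ligand counts (exact interval 21.6 to 23.8) in the H19KO library and 39.6% (38.5 to 40.8) in the WT library. Cxcr4 made up 42.5% of all receptor counts (40.6 to 44.5) in the H19KO library and 29.0% (27.2 to 30.9) in the WT library. The 39 ligands summed to 259 CPM in the H19KO library and 300.1 in the WT library. Without Cxcl12 the order turned, with 200.4 CPM in the H19KO library and 181 in the WT library.

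Markers of endothelium, stroma and granulosa cells went different ways. Of 8 blood endothelial markers 5 were below equality and 1 above, and they summed to 619 CPM in the H19KO library and 708 in the WT library, with none at 0. The stromal gene Pdgfra was higher, at 9355 counts in the H19KO library and 6906 in the WT library (0.45, 0.40 to 0.49). Of the 10 genes listed for hypoxia and stroma around Cxcl12, 2 were above equality and 5 below, with a median of -0.05. Of 8 granulosa markers 7 were below equality. The part of these cells in the Cxcl12 difference was not tested.

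The Cxcl12 and Cxcr4 promoter windows are shown as those of a ligand and receptor that differed in opposite directions. They have the same length and marking as above, with Cxcl12 on the plus strand and Cxcr4 on the minus strand.
Cxcl12 (chr6:117168285-117168584): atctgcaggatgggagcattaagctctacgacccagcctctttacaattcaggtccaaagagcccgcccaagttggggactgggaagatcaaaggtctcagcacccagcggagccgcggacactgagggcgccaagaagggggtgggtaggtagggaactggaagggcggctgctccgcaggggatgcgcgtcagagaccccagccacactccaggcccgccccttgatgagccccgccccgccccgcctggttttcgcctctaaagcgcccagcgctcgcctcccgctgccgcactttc
Cxcr4 (chr1:128592250-128592549): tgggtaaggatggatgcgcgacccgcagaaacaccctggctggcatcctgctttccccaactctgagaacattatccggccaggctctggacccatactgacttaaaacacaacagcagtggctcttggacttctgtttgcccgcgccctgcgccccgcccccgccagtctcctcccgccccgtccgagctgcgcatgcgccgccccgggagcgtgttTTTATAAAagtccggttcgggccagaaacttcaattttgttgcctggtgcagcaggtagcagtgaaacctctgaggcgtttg
The Cxcl12 window holds 0 matches to the 4 motifs. The Cxcr4 window holds TATAAA on the plus strand of the printed window at -30 to -25 and on the other at -32 to -27, which overlap.

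**Figure D2:**
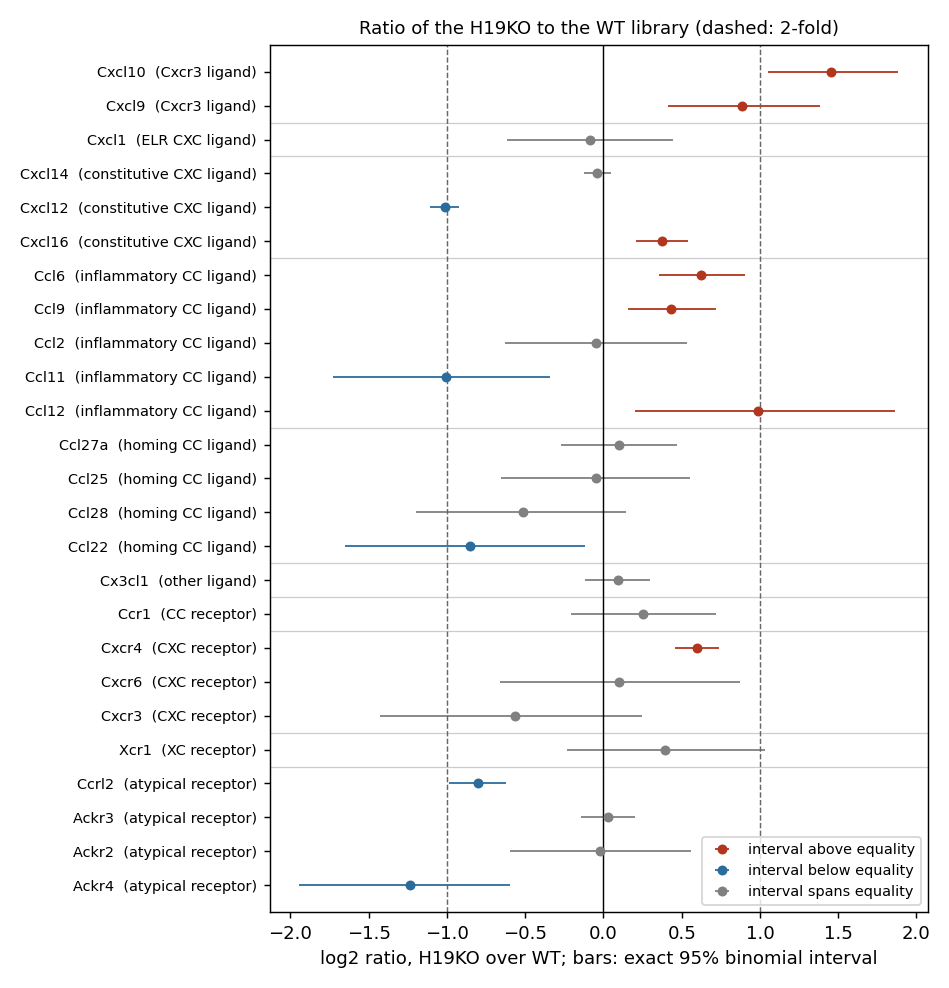
Log2 ratio of the H19KO to the WT library for 25 measured genes by role, with exact 95% binomial intervals that cover counting error only (solid line: equality, dashed lines: 2-fold). The whole interval of Cxcl10 lies above 2-fold, 7 intervals lie above equality (red), 5 below it (blue) and 13 span it (grey).

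The other CXC ligands made in resting tissue were close to equal or slightly higher. Cxcl14, a ligand of epithelium and stroma, had 2124 counts in the H19KO library and 2193 in the WT library. Its interval (-0.12 to 0.05) was the narrowest of the family and its level was the same within counting error. Per kilobase of merged exons Cxcl14 was the most abundant member, at 50.3 CPM per kb (48.2 to 52.5) in the H19KO library and 51.6 (49.5 to 53.8) in the WT library. Cxcl16, a membrane-bound ligand that also takes up oxidised lipoprotein, had 706 counts in the H19KO library and 548 in the WT library (0.37, 0.21 to 0.54). Cxcl16 overlaps Zmynd15 on the opposite strand, which had 64 counts in the H19KO library and 61 in the WT library. Its receptor Cxcr6 had 32 counts in the H19KO library and 30 in the WT library, so that counting error left its direction undetermined. The B cell attractant Cxcl13 and the mucosal ligand Cxcl17 had at most 5 counts in a library.

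On that scale the order of levels within the H19KO library began with Cxcl14, Cxcr4 at 25.5 CPM per kb and Cxcl16 at 10.1. Cxcl12 at 7.20, Ackr3 at 7.09, Ccl6 at 6.84 and Ccrl2 at 6.64 CPM per kb followed there with overlapping intervals. In the WT library Cxcr4 at 16.8, Cxcl12 at 14.5 and Ccrl2 at 11.6 CPM per kb followed Cxcl14, then Cxcl16 at 7.80 and Ackr3 at 6.95. Cxcl12 thus stood level with Ackr3 in the H19KO library and above it in the WT library. The exon lengths come from the annotation, which may hold exons that these ovaries do not use.

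Among the CC ligands of inflammation, Ccl6 and Ccl9 were higher in the H19KO library. Both are mouse ligands of Ccr1 that myeloid cells make, and they lie next to each other on chromosome 11. Ccl6 had 284 counts in the H19KO library and 185 in the WT library (0.62, 0.35 to 0.90). Ccl9 had 250 counts in the H19KO library and 186 in the WT library (0.43, 0.16 to 0.72). Their receptor Ccr1 had 89 counts in the H19KO library and 75 in the WT library, with an interval that spanned equality (0.25, -0.20 to 0.72). That interval includes the ratios of both ligands. The neighbours Ccl3, Ccl4 and Ccl5 in the same cluster (chr11:83525778-83664683) were below the minimum, and their counts went both ways. Ccl3 had 19 counts in the H19KO library and 20 in the WT library, Ccl4 15 and 9, and Ccl5 8 and 17 in the same order. Each of these intervals spanned equality.

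Macrophage and monocyte markers were higher beside them. Of 17 measured markers, 13 were above equality and 1 below it, with a median of 0.29 and none at 0. The list summed to 777 CPM in the H19KO library and 628 in the WT library. The lysozyme gene Lyz2 had 4734 counts in the H19KO library and 3268 in the WT library (0.54, 0.48 to 0.61), and the complement gene C1qb 2559 and 2030 in the same order (0.34, 0.26 to 0.43). The exception was the growth factor receptor Csf1r, with 1223 counts in the H19KO library and 1451 in the WT library (-0.24, -0.35 to -0.13). The marker ratios ran from -0.24 to 1.18. The top value was that of Ly6c2, with 48 counts in the H19KO library and 21 in the WT library, and the next was Fcgr1 at 0.71. So wide a range holds Ccl6, Ccl9, Cxcl16 and Cxcr4 but also Cxcl9, Ccl12 and the near-equal Cxcl14 and Ackr3. How much of any of these differences comes with the number of macrophages was not tested.

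The monocyte and eosinophil attractants of the other chromosome 11 cluster (chr11:82035571-82305690) went different ways although they are neighbours. Ccl2, a main attractant of monocytes, had 51 counts in the H19KO library and 53 in the WT library (-0.05, -0.63 to 0.53). Ccl12, a close mouse relative of Ccl2, had 40 counts in the H19KO library and 20 in the WT library (0.99, 0.20 to 1.86). Ccl11, or eotaxin, was lower, with 28 counts in the H19KO library and 57 in the WT library, 2.01-fold lower with a log2 interval of -1.72 to -0.34. The intervals of Ccl11 and Ccl12 did not overlap. Below the minimum of 1 CPM, Ccl7 had 25 counts in the H19KO library and 11 in the WT library, and Ccl8 23 and 9 in the same order. Both of these intervals lay above equality, at 0.12 to 2.36 for Ccl7 and 0.20 to 2.66 for Ccl8. Ccl1, the last gene of the cluster, had 2 counts in the H19KO library and 1 in the WT library. The eosinophil receptor of Ccl11, Ccr3, had 4 counts in the H19KO library and 5 in the WT library. The eosinophil marker Siglecf had 7 and 15 counts in the same order and Epx 1 and 0. Of 9 eosinophil and mast cell markers 2 were measured, Kit below equality (-0.37, -0.48 to -0.27) and the mast cell gene Cpa3 above it. Cpa3 had 35 counts in the H19KO library and 16 in the WT library (1.11, 0.25 to 2.09). Below the minimum, Mcpt4 had 7 and 2 counts in the same order and Prg2 4 and 0. The list summed to 65.6 CPM in the H19KO library and 83.0 in the WT library, mostly from Kit, which oocytes also express.

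The homing ligands, which direct leukocytes to skin, gut and lymphoid tissue, were near equal or lower. Ccl22, an attractant of regulatory T cells through Ccr4, had 24 counts in the H19KO library and 44 in the WT library (-0.85, -1.65 to -0.12). Ccl28, a mucosal ligand of Ccr10, had 34 counts in the H19KO library and 49 in the WT library, with an interval that spanned equality (-0.51, -1.19 to 0.14). Ccl25, the gut and thymus ligand of Ccr9, had 48 and 50 counts in the same order, and the skin ligand Ccl27a 129 and 121. Ccl27a has near-identical copies, so that its counts are uncertain. Both of those intervals spanned equality, and both genes overlap a more abundant gene on the opposite strand. Elavl1, the partner of Ccl25, had 2035 counts in the H19KO library and 2355 in the WT library. Il11ra1, the partner of Ccl27a, had 551 and 595 in the same order. The receptors Ccr4, Ccr7, Ccr9 and Ccr10 had 2 to 9 counts in the H19KO library and 0 to 9 in the WT library, too few to place them.

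Fractalkine, Cx3cl1, is a ligand on a membrane-bound stalk that holds monocytes. It had 395 counts in the H19KO library and 373 in the WT library (0.09, -0.12 to 0.30). Its receptor Cx3cr1, whose symbol falls outside the rule, had 466 counts in the H19KO library and 339 in the WT library (0.47, 0.26 to 0.67). There were 0.848 Cx3cl1 counts per Cx3cr1 count (0.739 to 0.971) in the H19KO library and 1.10 (0.947 to 1.28) in the WT library, where the intervals overlapped narrowly. Lymphotactin, Xcl1, had 15 counts in the H19KO library and 10 in the WT library. Its receptor Xcr1, which marks cross-presenting dendritic cells, had 51 counts in the H19KO library and 39 in the WT library (0.39, -0.23 to 1.04). The dendritic cell marker Clec9a had 38 and 23 counts in the same order (0.72, -0.05 to 1.55). Flt3 went the other way, at 31 and 42 (-0.42, -1.15 to 0.27), and Itgax was near equal (0.07, -0.30 to 0.43). Below the minimum, Batf3 had 11 and 13 counts in that order and Siglech 8 and 14. Of 7 dendritic markers 5 were measured, 2 above equality (Zbtb46 and Cd209a) and 0 below. The list summed to 33.3 CPM in the H19KO library and 28.6 in the WT library.

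Of the atypical receptors, Ccrl2 and Ackr4 were lower in the H19KO library and Ackr2 and Ackr3 close to equal. Ccrl2 does not signal to chemokines and presents the attractant chemerin to nearby cells. It had 399 counts, or 17.3 CPM, in the H19KO library and 701 counts, or 30.1 CPM, in the WT library (-0.80, -0.99 to -0.63), with 231 measured genes at a lower ratio. The chemerin gene Rarres2 had 2835 counts in the H19KO library and 2612 in the WT library (0.13, 0.05 to 0.20). Its signalling receptor Cmklr1 had 446 and 576 in the same order (-0.36, -0.54 to -0.18). There were 7.11 Rarres2 counts per Ccrl2 count (6.40 to 7.91) in the H19KO library and 3.73 (3.43 to 4.06) in the WT library. Another chemerin receptor gene, Gpr1, had 38 counts in the H19KO library and 43 in the WT library, with an interval that spanned equality (-0.17, -0.84 to 0.49).

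Ackr4 scavenges Ccl19, Ccl21 and Ccl25. It had 28 counts in the H19KO library and 67 in the WT library, the lowest ratio of the 26 measured members at -1.24 (-1.94 to -0.59). The interval reached on both sides of 2-fold. Ackr4 overlaps Acad11 on the opposite strand, which had 1087 counts in the H19KO library and 1053 in the WT library (0.05, -0.07 to 0.18). Its ligand Ccl19, which also has near-identical copies, had 26 counts in the H19KO library and 17 in the WT library, below the minimum, with an interval that spanned equality (0.61, -0.32 to 1.59). Ccl21a, Ccl21b and Ccl21c are near-identical copies, and all were listed at 0, so that reads shared among copies leave their level uncertain. Ackr2, a scavenger of inflammatory CC ligands on lymphatic vessels, had 52 counts in the H19KO library and 53 in the WT library (-0.02, -0.60 to 0.56). Of 5 lymphatic endothelial markers 1 was above equality and 2 below, and they summed to 192 CPM in the H19KO library and 204 in the WT library. Ackr1, the chemokine receptor of venules and red cells, had 2 counts in the H19KO library and 1 in the WT library.

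Of the 5 neutrophil attractants, only Cxcl1 was measured. Cxcl1, a ligand of Cxcr2 with the ELR motif, had 60 counts in the H19KO library and 64 in the WT library (-0.08, -0.62 to 0.45). Cxcl5 had 6 and 12 counts in the same order, and Cxcl2, Cxcl3 and Cxcl15 at most 2 in a library. Their receptor Cxcr2 had 3 counts in the H19KO library and 13 in the WT library, and Cxcr1 had 0 and 1. The Cxcr2 interval lay below equality (-1.94, -4.56 to -0.24). The neutrophil marker S100a8 had 4 counts in the H19KO library and 22 in the WT library, S100a9 3 and 10, and the granule gene Elane 0 in both. Other listed markers went the other way near the floor, with Camp at 5 and 0, Mpo at 4 and 1 and Retnlg at 4 and 2 in the same order. Of 8 listed neutrophil markers 2 were measured, 1 of them below equality, and the list summed to 15.4 CPM in the H19KO library and 18.6 in the WT library. The share of neutrophils in the Cxcr2 counts was not tested.

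The 35 genes below the minimum comprised 6 at 0 in both libraries, 12 more with at most 3 counts in either, and 17 with more. The 6 at 0 were Ccl21a, Ccl21b, Ccl21c, Ccl26, Ccl27b and Ccr6. A count of 0 allows up to 0.130 CPM in the H19KO library and 0.129 in the WT library. The 12 were Ackr1, Ccl1, Ccl20, Ccr10, Ccr1l1, Ccr8, Cxcl11, Cxcl15, Cxcl2, Cxcl3, Cxcr1 and Cxcr5. Of the 17, those not given above are Ccl17, at 13 counts in each library, and Ccl24, at 9 counts in the H19KO library and 15 in the WT library. At this depth the receptors and ligands of lymphoid tissue had no usable ratio.

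**Figure D3:**
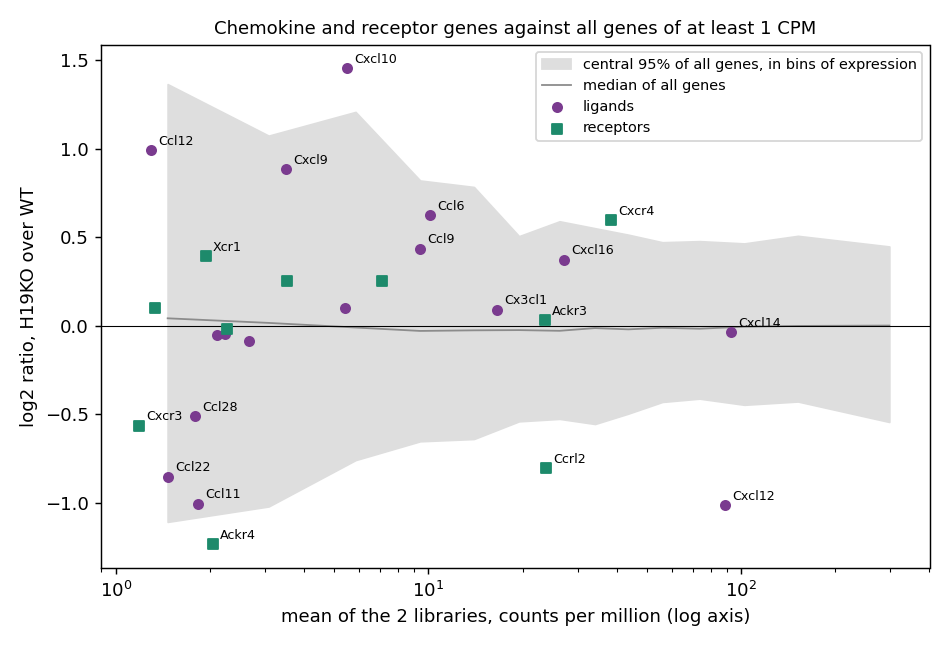
Log2 ratio against mean CPM (log axis) for the measured ligands (purple circles) and receptors (green squares), with the central 95% of all measured genes in 14 bins of expression shaded and their median as a grey line, both drawn between bin midpoints. Cxcl10 and Cxcr4 lie above the shaded range and Cxcl12, Ccrl2 and Ackr4 below it.

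Set against genes of like abundance, 5 of the 26 members lay outside the central 95% of log2 ratios and 21 inside it. Cxcl12 was farthest below its bin of 995 genes, whose range was -0.45 to 0.46. The range was -0.53 to 0.59 in the bin of Ccrl2 and -0.56 to 0.55 in that of Cxcr4. For Cxcl10 it was -0.76 to 1.21, and for Ackr4 -1.11 to 1.36. Cxcl9, Ccl11, Ccl12 and Ccl22 had ratios at least as far from 0 as Ccrl2 but stood inside, in bins of less abundant genes with wider ranges.

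By position, the members of a cluster did not all share a direction. The cluster with Cxcl9 and Cxcl10 had both measured genes above equality. That with Ccl6 and Ccl9 likewise had 2 of 2 above. The cluster from Ccl2 to Ccl1 had 1 above and 1 below of 3 measured.

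Other genes of the chemokine system went both ways by small amounts. Of 25 measured genes for G protein and arrestin signalling, 10 were above equality and 6 below, with a median of 0.07. The GTPase gene Rac1, which drives migration, was slightly higher at 0.13 (0.09 to 0.18), and the G protein subunit gene Gnai2 was at -0.06 (-0.11 to -0.01). Of 18 genes for heparan sulphate and related chains that hold chemokines at cell surfaces, 4 were above and 6 below, with a median of 0.00. These are 22.2% and 33.3%. Syndecan-1, Sdc1, was higher (0.45, 0.40 to 0.50) and versican, Vcan, lower (-0.45, -0.50 to -0.40). None of these genes lay beyond 2-fold.

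Of 8 measured proteases that cleave or shed chemokines, 3 were above and 1 below. The gelatinase Mmp9 had 319 counts in the H19KO library and 153 in the WT library (1.07, 0.79 to 1.36). Of the sheddase genes of Cx3cl1 and Cxcl16, Adam10 was slightly higher at 0.15 (0.09 to 0.22). The Adam17 interval spanned equality (0.06, -0.01 to 0.13). Among 18 measured NF-kB and cytokine inducers 6 were above and 3 below, with a median of 0.07. Rela, the main activating subunit of NF-kB, had -0.22 (-0.30 to -0.14), and the receptor gene Tnfrsf1b 0.53 (0.43 to 0.62). Tnf, Il1b and Il6 had 5 to 13 counts in the H19KO library and 6 to 12 in the WT library. Of 13 measured adhesion molecules of leukocyte entry 6 were above and 2 below, that is 46.2% and 15.4%, beside 22.2% and 24.0% of all measured genes. Icam1 was higher (0.35, 0.13 to 0.58) and Vcam1 lower (-0.24, -0.37 to -0.11).

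**Figure D4:**
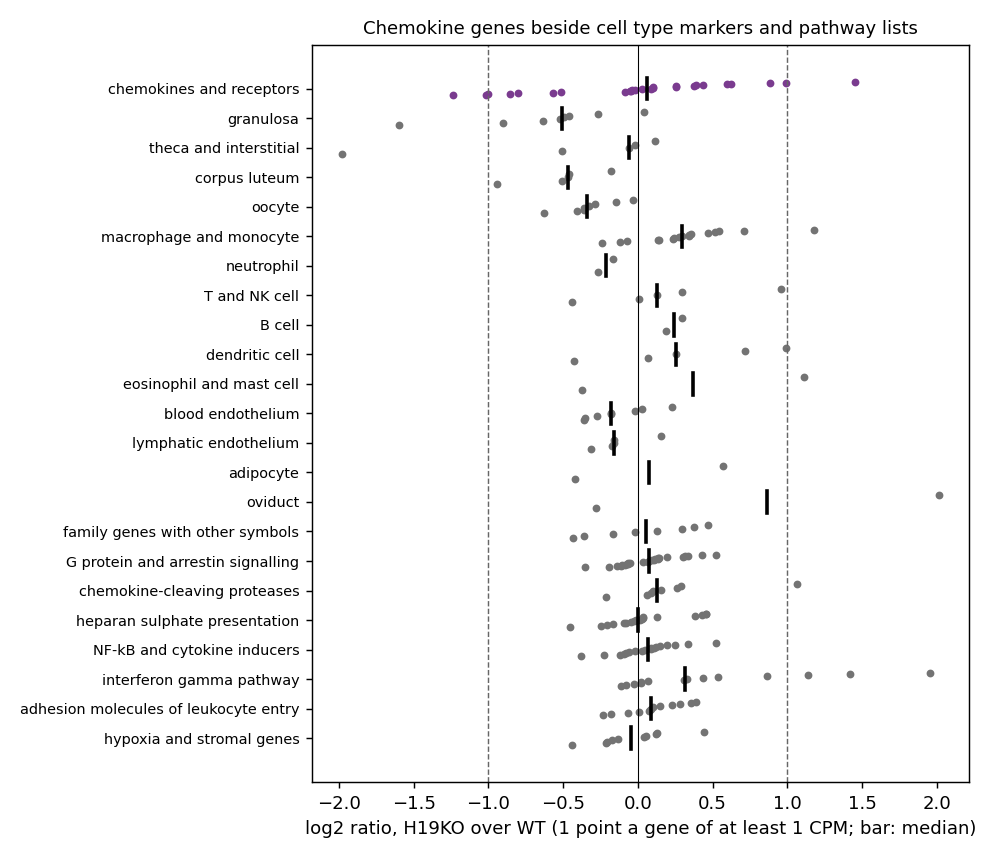
Log2 ratio of each measured gene (points) and list median (black bars) for the chemokines and receptors (purple, top row), cell type markers and chemokine pathway lists (grey), with equality solid and 2-fold dashed. The chemokine row is centred near equality with a wide spread, whereas the macrophage row and the interferon gamma row have medians of 0.29 and 0.32.

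Chemokine family genes with other symbols went both ways. Of 8 measured genes 3 were above and 1 below, with a median of 0.05. The platelet chemokine Pf4 had 55 counts in the H19KO library and 45 in the WT library, an interval that spanned equality (0.29, -0.30 to 0.90). Mif, a cytokine that also binds Cxcr4, had 2426 and 2472 counts in the same order (-0.02, -0.10 to 0.06). Cd74, its receptor and the class II chaperone, had 0.38 (0.33 to 0.43). Markers of B cells, adipocytes, oviduct and lymph node stroma, which a dissected ovary could hold, were sparse or mixed. Of 7 B cell markers 2 were measured, neither clear of equality. Of 6 adipocyte markers 2 were measured, 1 above and 1 below. Of 6 oviduct markers 2 were measured, 1 above and 1 below. The secretory gene Ovgp1 had 134 counts in the H19KO library and 33 in the WT library (2.01, 1.47 to 2.63). Tubb3 had 752 and 918 in the same order (-0.28, -0.42 to -0.14). Below the minimum, Foxj1 had 3 and 11 counts in that order, Pax8 9 and 9 and Dnah5 14 and 12. The 5 lymph node and follicular stroma markers were all below the minimum and summed to 2.03 CPM in the H19KO library and 2.02 in the WT library. Theca markers had 1 of 5 above equality and 4 below, luteal markers 0 above and 5 below, and oocyte markers 0 above and 7 below of 8. The medians were -0.06 for the theca list, -0.47 for the luteal list and -0.34 for the oocyte list. Over all measured genes 22.2% were above and 24.0% below. Abundant genes have narrow intervals, so that small differences count, as for Cyp11a1 (-0.02, -0.03 to -0.01). Larger differences were present too, as for the luteal gene Akr1c18 (-0.94, -1.04 to -0.84) and the oocyte gene Zp3 (-0.63, -0.78 to -0.48). The androgen synthesis gene Cyp17a1 of theca (-1.98, -2.04 to -1.92) and the aromatase gene Cyp19a1 of granulosa cells (-1.60, -1.78 to -1.42) were beyond 2-fold lower.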

How the data were processed

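Whole-ovary total RNA was depleted of ribosomal RNA and sequenced as stranded paired-end libraries, per the labels' protocols. The authors deposited whole-number counts per gene symbol, 1 column per genotype. Build mm10 and the programs DESeq2 1.0.0, Cufflinks 2.2.1 and STAR 2.5.0a are named per the submitters' processing notes, without their roles. Not given in the sources used here are the counting tool, its annotation and its strand setting.

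Libraries were scaled by TMM (edgeR 4.0.16, R 4.3.3). Each ratio has an exact conditional binomial (Clopper-Pearson) 95% interval, and each level an exact Poisson one, computed with Python 3.11.15, numpy 2.4.6, scipy 1.17.1 and pandas 2.3.3. Figures used matplotlib 3.10.9. A mean of 1 CPM was required, at which the median interval up to 2 CPM was 1.53 log2 units wide. PCR reads without molecular identifiers are not independent molecules. GENCODE M21 on the same build gave coordinates, overlaps and merged exon lengths, and matched all 61 members by symbol. RefSeq promoter windows matched 45. With 1 library a genotype no significance test was run.

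Measured members were named, and of other lists up to 4 abundant members, those beyond 2-fold and defining markers. Members and lists were chosen with earlier results of these data known. Some rows that the symbol pattern or the lists match are not reported here. The 27 rows that carry dates in place of symbols held 0.231% of counts in the H19KO library and 0.229% in the WT library and stayed in the totals. Alternatives were 3 other scalings (DESeq2 1.42.0 for median of ratios), another pseudocount, other minimums and limits, the point ratio, and leaving out overlapping genes.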

Additional observations from a re-analysis of the deposited data

How the results depend on the processing

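For the 26 measured genes, 104 ratios were recomputed under total count scaling, median-of-ratios scaling, library sizes without the 10 most abundant genes, and a pseudocount of 5. All 104 stayed within counting error, and none clear of equality changed sign. The median of all measured genes moved only from -0.02 to -0.00 across scalings. The count of chemokine genes beyond 2-fold was 0 higher at a 4-fold limit, and 0 higher when members that overlap another gene were left out, since Cxcl10 overlaps Art3. It was 3 lower at a 1.5-fold limit and 3 lower by the point ratio. At 5 CPM, 2 members were below equality, because fewer genes were counted. Over all genes, 34 were lower at 5 CPM, 206 were higher and 123 lower by the point ratio, 251 and 168 at 1.5-fold, and 16 and 7 at 4-fold. No paired analysis was possible because H19KO and WT are a single library each, so that leaving out a replicate could not be done either. Depth limits members near 1 CPM, whose intervals were 1.27 to 1.67 log2 units wide.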
